A study of Mus musculus with 2 samples.

Results

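The genes described here are 9 genes of gp130 cytokine signalling, Sprr1a, Clcf1, Cntfr, Lif, Lifr, Osmr, Il6st, Socs3 and Stat3. They were taken by symbol from a table of 30385 entries, and all 9 were listed. The table comes from 5′RNA-seq of mouse hearts, a form of polyA RNA-seq in which the RNA is left whole, which concentrates reads at the 5′ ends of transcripts. MHC403 was heart RNA of MHC403/+ mice, which carry 1 mutant copy of a myosin heavy chain gene with a missense change known from patients and serve as a model of hypertrophic cardiomyopathy. WT was heart RNA of wild-type mice. Mice of both genotypes were of strain 129/SvEv, were 8 to 16 weeks old and received CsA (cyclosporine A, a calcineurin inhibitor) subcutaneously at 15 mg/kg, 2 injections a day over 2 weeks. No library without CsA was analysed here, so an effect of the genotype and a response to CsA that depends on genotype cannot be told apart. Animals were pooled into 1 library for each genotype, and how many animals each pool held was not stated.

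gp130, encoded by Il6st, is the receptor chain shared by the interleukin 6 family of cytokines. Leukemia inhibitory factor (Lif) signals through gp130 paired with Lifr, and oncostatin M through gp130 paired with Osmr. Cardiotrophin-like cytokine factor (Clcf1) also uses gp130 and Lifr, after binding Cntfr, a chain that recognises the ligand and does not signal itself. Janus kinases then phosphorylate Stat3, which enters the nucleus and drives genes that include Socs3, a feedback inhibitor that binds gp130. In heart muscle the pathway is known for its part in growth and survival of myocytes under load. Sprr1a encodes a small proline-rich protein that is best known from the cornified envelope of skin and other squamous epithelia, and has been reported as a gene induced by gp130 cytokines and stress in cardiac myocytes.

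Promoter sequences are shown for the 3 members with the largest differences among those with a promoter entry, Sprr1a, Socs3 and Osmr. They are RefSeq promoters on build GRCm38.p6, all on the minus strand and printed 5′ to 3′, from 250 bases before to 50 bases after the annotated start. Sprr1a lies at chr3:92485832-92486131, Socs3 at chr11:117969317-117969616 and Osmr at chr15:6874264-6874563. Capitals mark matches to 4 motifs searched on both strands, namely the STAT motif TTCNNNGAA, the C/EBP motif TTGCNNAA, the AP-1 motif TGANTCA and the TATA box, spelled TATAAA.
Sprr1a: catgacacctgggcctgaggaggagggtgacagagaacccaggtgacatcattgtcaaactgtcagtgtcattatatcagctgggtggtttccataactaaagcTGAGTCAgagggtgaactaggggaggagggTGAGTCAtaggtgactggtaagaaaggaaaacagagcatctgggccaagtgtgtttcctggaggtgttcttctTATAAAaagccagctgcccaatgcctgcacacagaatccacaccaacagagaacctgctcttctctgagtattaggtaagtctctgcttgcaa
Socs3: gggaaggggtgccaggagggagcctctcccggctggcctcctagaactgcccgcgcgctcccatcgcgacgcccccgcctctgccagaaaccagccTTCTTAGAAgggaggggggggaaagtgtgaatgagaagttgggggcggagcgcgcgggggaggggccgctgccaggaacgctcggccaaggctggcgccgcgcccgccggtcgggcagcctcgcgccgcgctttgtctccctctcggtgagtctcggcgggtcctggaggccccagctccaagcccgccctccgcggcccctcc
Osmr: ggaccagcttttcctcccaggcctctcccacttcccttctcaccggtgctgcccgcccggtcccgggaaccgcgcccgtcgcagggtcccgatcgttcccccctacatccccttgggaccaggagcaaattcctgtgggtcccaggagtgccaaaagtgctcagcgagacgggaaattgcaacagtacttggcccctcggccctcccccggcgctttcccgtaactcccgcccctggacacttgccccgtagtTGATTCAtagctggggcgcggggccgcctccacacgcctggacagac

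The Sprr1a promoter held TGANTCA at 2 places, both as TGAGTCA, beginning 146 and 116 bases upstream of the start, and a TATAAA beginning 43 bases upstream. TGANTCA was present in 7.81% of all 32851 promoter entries and TATAAA in 13.6%. The Socs3 promoter held 1 match to TTCNNNGAA, the letters TTCTTAGAA beginning 154 bases upstream, a motif found in 8.30% of entries. The Osmr promoter held TGATTCA beginning 3 bases downstream of the start. TTGCNNAA, present in 10.8% of entries, was not in the promoters of these 3 genes. Of the other members, Lif had 1 TGANTCA match, and Cntfr, Lifr, Il6st and Stat3 had no match to these 4 motifs. Clcf1 is named only. The GC box GGGCGG, in 35.7% of entries, was found in promoters of Cntfr, Il6st, Lifr, Osmr, Socs3 and Stat3, and not in those of Sprr1a and Lif. The Sprr1a promoter had a GC content of 48.7%, against 52.7% for the median of all entries, and the Socs3 promoter 73.3%. None of the marked matches overlapped another. These matches describe letters in a window and say nothing of binding.

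Total reads came to 5468677 in MHC403 and 5481123 in WT. Levels are given as RPM, the reads of a gene scaled to all listed reads of its library. Each ratio divides the MHC403 level by the WT level and carries an exact (Clopper-Pearson) 95% interval. Intervals on levels are exact Poisson 95% intervals. Both kinds cover counting error only, since reads had no molecular identifiers and animals had been pooled. With 1 library for each genotype no difference had a replicate check and none was tested. Entries are called measured if either library holds 50 reads or more, and a measured entry with a ratio of at least 2 or at most 0.5 is counted as higher or lower. Of 9507 measured entries 26.1% were higher and 2.43% lower, and their median log2 ratio was 0.57, a ratio of 1.48. Median-of-ratios scaling, which centres the typical gene, lowered every log2 ratio by 0.55 and gave 10.9% higher and 7.59% lower.

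Heart muscle was checked by its markers, which were abundant in both libraries, with summed levels of 41519 RPM in MHC403 and 64660 RPM in WT over 8 cardiomyocyte genes. Of these 8, 2 (Myh6 and Myl2) were lower, beside 2.43% of all measured entries. With median-of-ratios scaling 4 were lower, beside 7.59% of all. Tnnt2, Actc1, Ryr2 and Mybpc3 had more reads in MHC403 than in WT, so the sum does not describe each gene. Of 8 fibroblast markers 5 were higher, or 4 with median-of-ratios scaling, with sums of 2537 RPM in MHC403 and 465 RPM in WT. The matrix genes Col1a1, Col1a2 and Postn had the largest ratios of the 8, while Dcn, Tcf21 and Dpt were within 2-fold. The fibroblast sum thus does not describe each gene either. Of 10 macrophage markers 9 were higher, or 6 with median-of-ratios scaling, with sums of 682 RPM in MHC403 and 225 RPM in WT. These counts stand beside 26.1% of all measured entries higher, or 10.9% with median-of-ratios scaling, and 5 of the macrophage and 2 of the fibroblast markers reached 50 reads through MHC403 alone. Neutrophil markers summed to 79 reads in MHC403 and 6 in WT, with S100a9 at 74 in MHC403 and 6 in WT and Mpo and Camp at 0 in both. None of 7 endothelial markers passed 2-fold with library totals. With median-of-ratios scaling 1 of the 7 was lower, beside 7.59% of all measured entries. In bulk RNA a change in the number of cells of a type and a change in RNA per cell cannot be told apart, and the part of these cell types in the results was not tested.

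Of the 9 members 7 were measured, and 5 of these were higher, none lower and 2 within 2-fold, beside 26.1% higher and 2.43% lower of all measured entries. With median-of-ratios scaling 4 were higher, 1 lower and 2 within, beside 10.9% higher and 7.59% lower of all. Sprr1a, Socs3, Clcf1, Osmr and Stat3 were the 5 higher genes, Il6st and Lifr were within 2-fold, and Cntfr and Lif had too few reads. Sprr1a, Socs3, Clcf1 and Osmr reached 50 reads through the MHC403 library alone, so a low MHC403 value would have kept them out of the count. Only Il6st, Stat3 and Lifr had 50 reads in both libraries. The plot of read levels shows all 9.

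**Figure D1:**
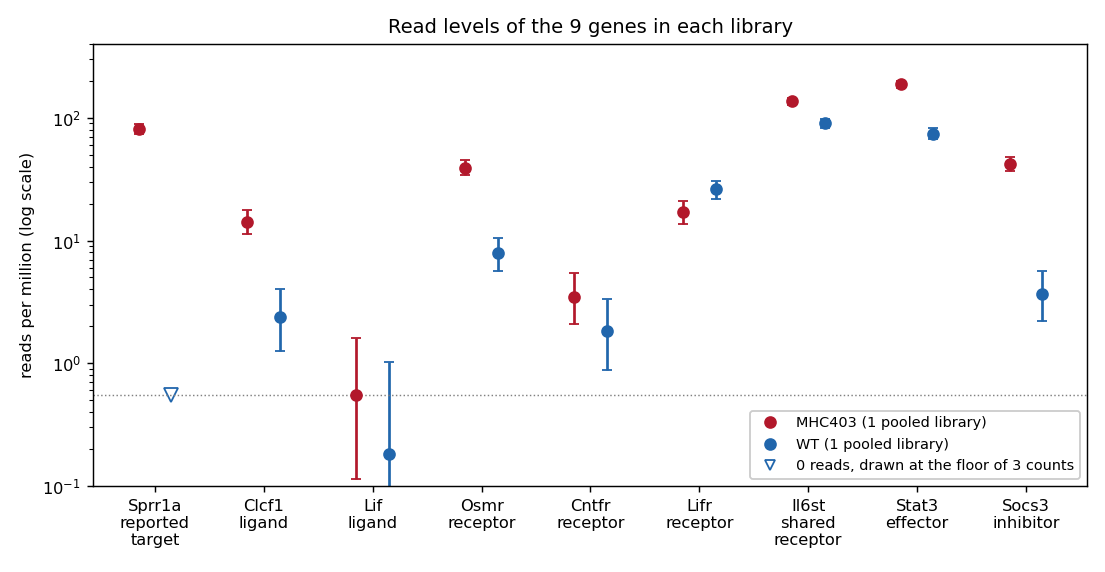
RPM (log axis) of the 9 genes, MHC403 in red and WT in blue, 1 pooled library each; bars are exact Poisson 95% intervals and the dotted line is the floor of 3 counts. Sprr1a stood at 80.8 RPM in MHC403 with 0 reads in WT, while Lifr is the gene drawn lower in MHC403 than in WT.

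Sprr1a (chromosome 3, 92287876 to 92289803 on mm9, minus strand, 1 annotated start at 92289803) had 442 reads in MHC403 and 0 in WT. These are 80.8 RPM (73.5 to 88.7) in MHC403 and 0 RPM in WT, with an exact upper limit of 0.673 RPM for a count of 0; the floor of 3 counts used for its ratio is 0.547 RPM. With WT set at a per-library floor of 3 reads the ratio was 147.7, a value that depends on the floor. Its counting interval began at 119.6. With the floor in place of the WT count Sprr1a ranked 3 of the 9507 measured entries by ratio. The windows that the table lists for Sprr1a covered 400 bases around and downstream of the start and overlapped no window of another entry. None of the 764 words of 36 bases in its annotated transcripts occurred in a transcript of another gene. Copies with mismatches, or outside annotated transcripts, were not searched for.

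Other genes of the Sprr family had few or no reads. Of 12 other Sprr genes taken by symbol, 10 had 0 reads in both libraries. The sum over the 12 was 14 reads in MHC403 and 2 in WT. Nearly all of these were from Sprr2a1, with 13 reads in MHC403 and 2 in WT, a ratio of 6.51 (1.47 to 59.5). Sprr1b, Sprr3 and Sprr4 had 0 reads in both. The entries SPRR2H and Sprr2j-ps, outside this count, also had 0 reads in both. Words shared with other transcripts were not counted for these genes, and the handling of reads with several matches is not stated. A count of 0 here may thus reflect that handling. The Sprr genes sit in the epidermal differentiation complex, a cluster of skin genes. Within 500 kb of the Sprr1a start 39 other entries were listed, and 34 of them had 0 reads in both libraries. The 5 entries with reads were Sprr2a1, Sprr2b, Lor, Lce1f and an entry listed without a gene symbol. That entry held 187 reads in MHC403 and 52 in WT, more than the other 4 together. The distance of 500 kb was chosen after the values were seen.

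**Figure D2:**
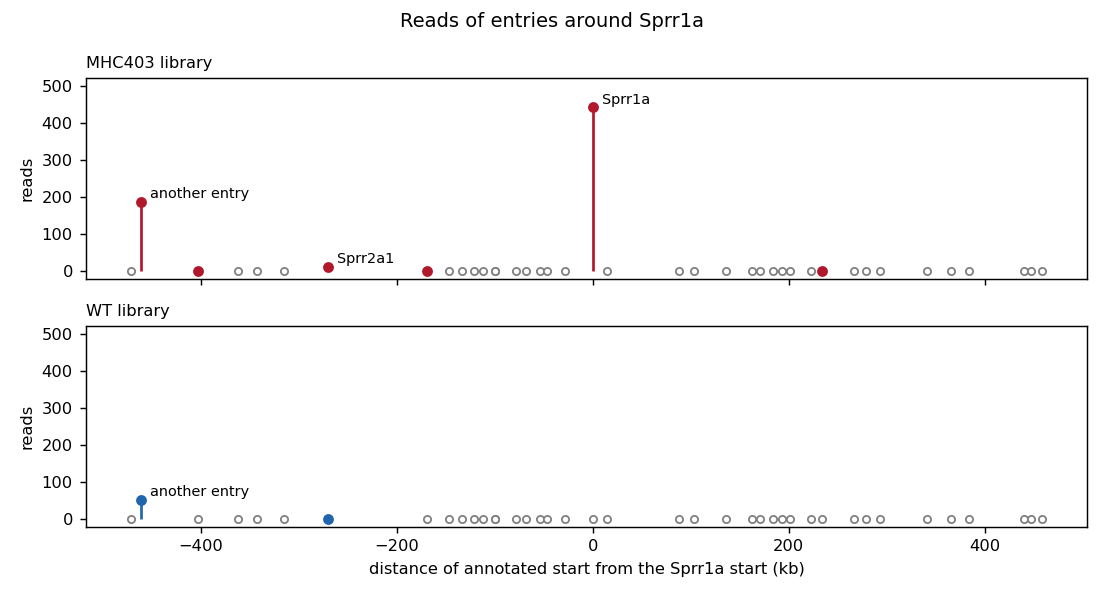
Reads of each listed entry (y axis) by the distance of its annotated start from the Sprr1a start in kb (x axis), MHC403 above WT; open circles are entries with 0 reads. In MHC403 the 442 reads of Sprr1a stood among neighbours at or near 0, apart from 1 entry with 187 reads.

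Markers of keratinocytes, in which Sprr1a is a known product, were at or near 0 apart from Perp. Of 15 markers Krt5, Krt1, Ivl, Flg, Tgm3 and Dsg1a had 0 reads in both libraries, and Krt14 had 0 in MHC403 and 2 in WT. Perp, a junction protein that is not restricted to skin, was the 1 measured gene of the list, with 1054 reads in MHC403 and 363 in WT. Without Perp the other 14 markers summed to 44 reads in MHC403 and 21 in WT. The most abundant of these 14 in MHC403 was Krt10, with 16 reads.

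A read minimum in MHC403 with no read at all in WT was rare. Among measured entries 6 had this pattern. The other 5 were the matrix glycoprotein tenascin C (Tnc, 243 reads in MHC403), the collagens Col11a1 (77 reads) and Col12a1 (76 reads), the secreted lectin Clec11a (64 reads) and the early response transcription factor Egr2 (57 reads). These are the entries most like Sprr1a by pattern, as far as 2 libraries can show one.

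The ligands were read at low counts. Clcf1 (chromosome 19, 4214392 to 4223490, plus strand) had 78 reads in MHC403 and 13 in WT, which are 14.3 RPM (11.3 to 17.8) in MHC403 and 2.37 RPM (1.26 to 4.06) in WT. It was 6.01-fold (3.32 to 11.8) higher, and the intervals of its levels did not overlap. A share of 7.18% of the 36-base words in Clcf1 transcripts also occurred in transcripts of 1 other annotated gene, so a part of its reads could belong there. Lif (chromosome 11, 4157571 to 4172517, plus strand), a secreted cytokine, had 3 reads in MHC403 and 1 in WT. Both were at or under the floor of 3 counts, so no ratio is given.

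The ligands reported here were a list of 10 genes that includes Clcf1 and Lif. Clcf1 was the 1 measured gene among them, and the others had under 50 reads in both libraries. Cardiotrophin 1 (Ctf1), a ligand named for its action on heart cells, had 31 reads in MHC403 and 39 in WT, a ratio of 0.797 (0.481 to 1.31), an interval that includes 1. Il6 had 11 reads in MHC403 and 0 in WT, a ratio of 3.68 against the floor (interval from 2.52). Osm, the ligand of Osmr, had 7 reads in MHC403 and 0 in WT, a ratio of 2.34 against the floor (interval from 1.44). Cntf had 4 reads in MHC403 and 2 in WT and Ebi3 had 8 in MHC403 and 3 in WT, and the intervals of both ratios included 1. Il11, Ctf2 and Il27 had 0 reads in both libraries. A count of 0 in WT has an exact upper limit of 0.673 RPM, so levels under it could have been missed. The MHC403 total was close to that of WT, and the same limit holds there about equally.

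Receptor chains included 1 higher member and 1 with fewer reads in MHC403. Osmr (chromosome 15, 6763577 to 6824313, minus strand), the oncostatin M receptor, had 215 reads in MHC403 and 43 in WT, which are 39.3 RPM (34.2 to 44.9) in MHC403 and 7.85 RPM (5.68 to 10.6) in WT. It was 5.01-fold (3.60 to 7.13) higher. Lifr (chromosome 15, 7079572 to 7147489, plus strand), the receptor of Lif, had 93 reads in MHC403 and 143 in WT, which are 17.0 RPM (13.7 to 20.8) in MHC403 and 26.1 RPM (22.0 to 30.7) in WT. Lifr was 1.53-fold (1.17 to 2.01) lower, within 2-fold, and 2.24-fold lower with median-of-ratios scaling. Osmr and Lifr lie on the same chromosome and had counting intervals on opposite sides of a ratio of 1.

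Il6st (chromosome 13, 113254278 to 113297068, plus strand), the shared gp130 chain, had 745 reads in MHC403 and 495 in WT, which are 136 RPM (127 to 146) in MHC403 and 90.3 RPM (82.5 to 98.6) in WT. It was 1.51-fold (1.34 to 1.69) higher, and its log2 ratio lay 0.02 above the median of all measured entries, so the shared chain stood with the typical gene. Cntfr (chromosome 4, 41604529 to 41644123, minus strand), the receptor of Cntf and Clcf1, had 19 reads in MHC403 and 10 in WT, a ratio of 1.90 (0.842 to 4.59). A difference in Cntfr was not detectable at this depth.

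Among the receptor chains that are not members, the interleukin 6 receptor Il6ra had 64 reads in MHC403 and 21 in WT, 3.05-fold (1.84 to 5.27) higher. Il11ra1 had 157 reads in MHC403 and 139 in WT, a ratio of 1.13 (0.895 to 1.43), whose log2 value of 0.18 became -0.37 with median-of-ratios scaling. Its reads are uncertain because near-identical copies of this gene are known in the mouse genome. Il27ra had 4 reads in MHC403 and 7 in WT, too few for a ratio to be read. Of 7 receptor genes listed, 5 were measured, 2 of them (Osmr and Il6ra) higher, none lower and 3 within 2-fold, beside 26.1% of all measured entries higher. With median-of-ratios scaling 2 were higher and 1 (Lifr) lower, beside 10.9% higher and 7.59% lower of all measured entries. The median log2 ratio of the 5 measured receptors was 0.59, against 0.57 for all measured entries. Osmr and Il6ra reached the minimum through MHC403 alone.

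**Figure D3:**
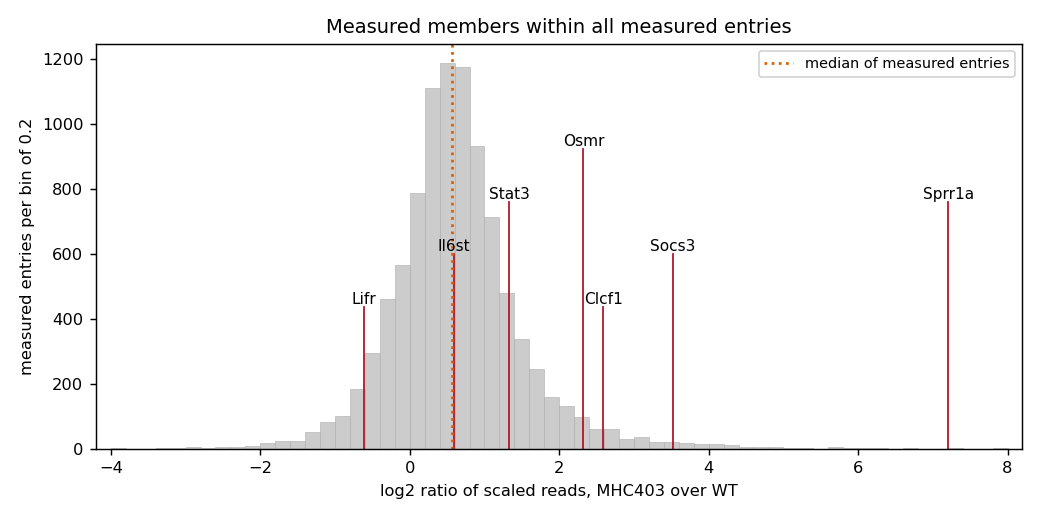
Histogram of log2 ratios, MHC403 over WT (x axis), for 9507 measured entries (y axis, entries per bin of 0.2), with the 7 measured members as red lines. Il6st stands at the dotted median of 0.57, Lifr below it at -0.62, and Sprr1a, set against the floor of 3 counts in WT, at 7.21.

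Stat3 (chromosome 11, 100748124 to 100800825, minus strand), the transcription factor of the pathway, had 1025 reads in MHC403 and 408 in WT, which are 187 RPM (176 to 199) in MHC403 and 74.4 RPM (67.4 to 82.0) in WT. It was 2.52-fold (2.24 to 2.83) higher and was the only one of the 5 higher members with 50 reads in both libraries. With median-of-ratios scaling the ratio was 1.72 and no longer past 2-fold. Stat3 ranked 1453 of 9507 by ratio.

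Most other genes reported here from this step were within 2-fold. Of 14 other Janus kinase, STAT and adaptor genes, 13 were measured, with 2 higher and 11 within 2-fold, beside 26.1% of all measured entries higher. Their median log2 ratio was 0.56 against 0.57 for all measured entries. The higher genes were the kinases Tyk2, 2.76-fold (1.77 to 4.41), and Jak3, 2.21-fold (1.65 to 2.97). Neither passed 2-fold with median-of-ratios scaling, under which 10.9% of all measured entries were higher. The kinase Jak1 had 561 reads in MHC403 and 567 in WT, a ratio of 0.992 (0.881 to 1.12). Jak2 had 67 reads in MHC403 and 39 in WT, a ratio of 1.72 (1.14 to 2.62). Stat6, which serves interleukin 4, had a ratio of 1.84 (1.51 to 2.25), and the adaptor Shc1 had a ratio of 1.78 (1.46 to 2.19).

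Socs3 (chromosome 11, 117827401 to 117830680, minus strand), the feedback inhibitor, had 229 reads in MHC403 and 20 in WT, which are 41.9 RPM (36.6 to 47.7) in MHC403 and 3.65 RPM (2.23 to 5.64) in WT. It was 11.5-fold (7.26 to 19.1) higher and ranked 104 of 9507. After Sprr1a it had the highest ratio of the 9 genes. Of the 13 other inhibitors of Janus kinase and STAT signalling listed, 9 were measured, with 3 higher, 0 lower and 6 within 2-fold, beside 26.1% of all measured entries higher. Their median log2 ratio was 0.71, against 0.57 for all, and 4 of the 9, Socs6 and Ptpn2 among them, reached 50 reads through MHC403 alone. The 3 higher genes were Socs2, 3.28-fold (2.60 to 4.16), Socs6, 2.16-fold (1.33 to 3.58), and the phosphatase Ptpn2, 2.07-fold (1.446 to 2.996). Of these, Socs2 alone passed 2-fold with median-of-ratios scaling, beside 10.9% of all measured entries, and the windows of Socs6 overlap those of another entry. Pias3, which binds Stat3 and inhibits it, had a ratio of 1.82 (1.32 to 2.54). Socs1 had 11 reads in MHC403 and 2 in WT, a ratio of 5.51 (1.203 to 51.2), under the minimum.

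Genes known as targets of Stat3 or gp130 signalling formed the longest list. The list was drawn up with earlier results of these data known, so it is not independent evidence of a direction. Of 30 targets reported here besides Sprr1a, Socs3 and Osmr, 24 were measured, with 17 higher, 0 lower and 7 within 2-fold, against 26.1% of all measured entries higher. Their median log2 ratio was 2.23, against 0.57 for all measured entries, and 15 were higher with median-of-ratios scaling, against 10.9% of all. Of the 24, 10 reached the minimum through MHC403 alone, and all 10 are among the 17, so the count over the 24 cannot be set against the share of all entries as support. Of the other 14, which had 50 reads in both libraries, 7 were higher and 7 within 2-fold. The share of all entries with 50 reads in both libraries is not given, and 26.1% is no like background for these 14. Timp1, an inhibitor of matrix metalloproteinases, had 886 reads in MHC403 and 6 in WT and was 148-fold (67.7 to 404) higher. The metallothionein Mt2 had 3954 reads in MHC403 and 234 in WT, 16.9-fold (14.8 to 19.4) higher, and Serpina3n, an acute phase protease inhibitor, had 1225 in MHC403 and 81 in WT, 15.2-fold (12.1 to 19.2) higher. Ccl2, a chemokine that attracts monocytes, had 176 reads in MHC403 and 11 in WT, 16.0-fold (8.75 to 32.7) higher.

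The targets below are named by role, a choice made after their values were seen. Of the transcription factors in the list, Myc was 10.7-fold (7.05 to 17.1) higher, Fos 9.81-fold (5.65 to 18.4), Junb 8.60-fold (6.44 to 11.7), Bcl3 4.49-fold (2.99 to 6.97) and Cebpd 4.49-fold (3.73 to 5.44), while Cebpb (1.91, 1.76 to 2.07) and Hif1a (1.66, 1.34 to 2.06) were within 2-fold. Of the acute phase genes, Lcn2 was 11.3-fold (6.10 to 23.2) higher, Hp 6.89-fold (3.26 to 16.8) and Lbp 4.92-fold (2.54 to 10.4). Lrg1, another acute phase gene, had 208 reads in MHC403 and 187 in WT, a ratio of 1.11 (0.911 to 1.37) whose log2 value of 0.16 became -0.39 with median-of-ratios scaling. Saa3 had 10 reads in MHC403 and 1 in WT, under the minimum, and the fibrinogen genes Fga, Fgb and Fgg had 0 reads in both libraries, as did Reg3b and Reg3g. Survival genes of the list, Mcl1 (1.91, 1.73 to 2.10), Bcl2l1 (1.76, 1.56 to 1.98) and the kinase Pim1 (1.74, 1.34 to 2.26), were within 2-fold. Vegfa, an angiogenic factor, had 984 reads in MHC403 and 1342 in WT, 1.36-fold (1.25 to 1.48) lower. Several of these genes, among them Fos, Junb, Myc and Ccl2, are known to respond to many other signals, and Lcn2 is also a known neutrophil product. Markers of macrophages, fibroblasts and neutrophils given above had higher sums in the same library, though the fibroblast sum does not describe each marker. The part of those cells in these values was not tested.

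**Figure D4:**
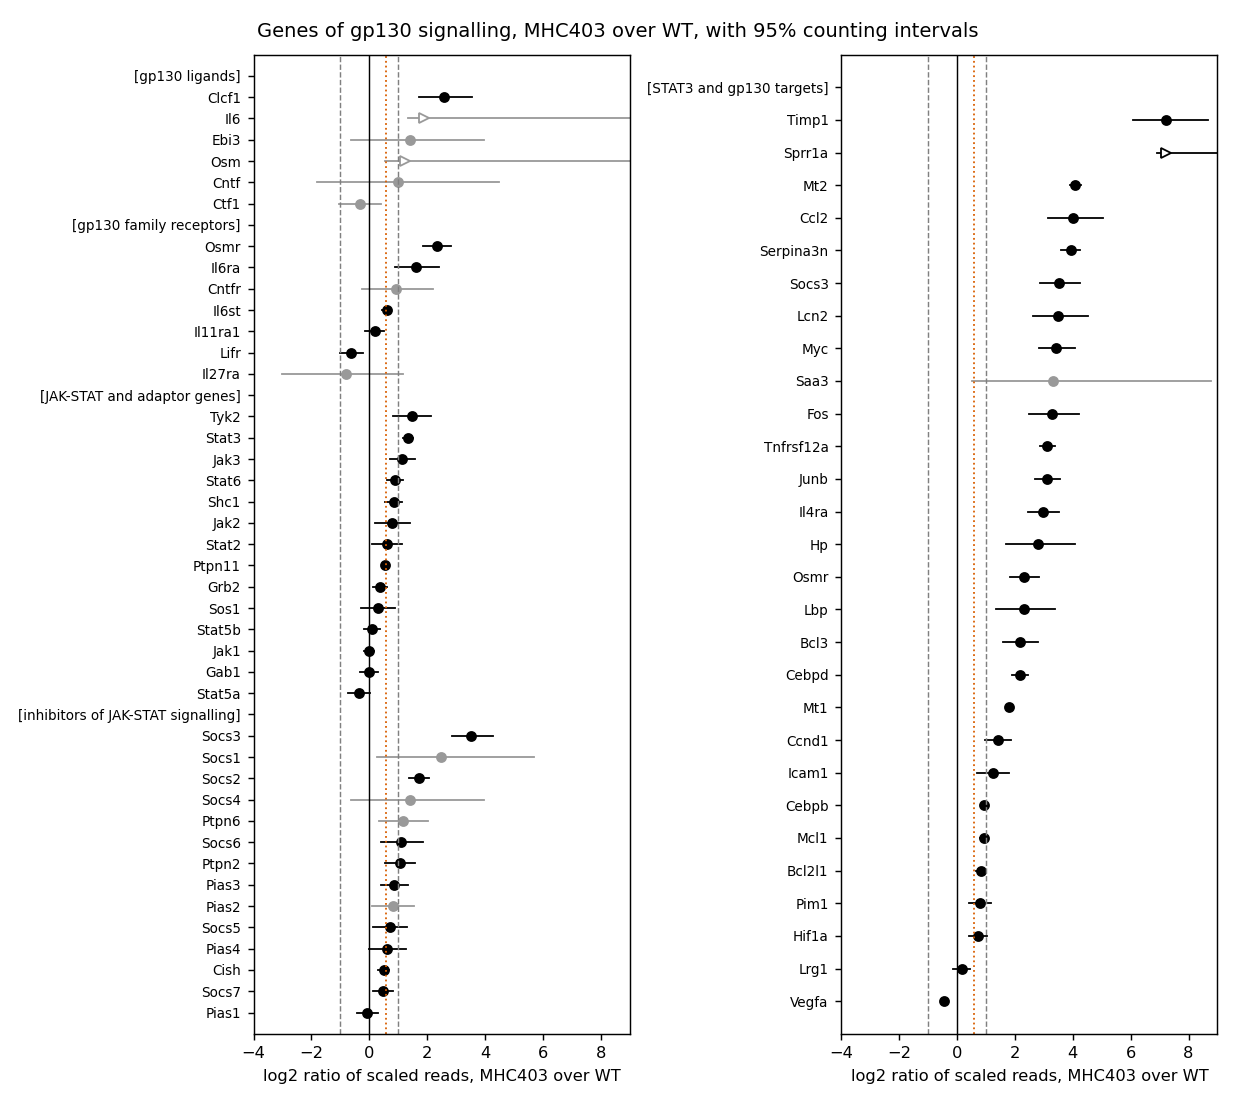
Log2 ratios, MHC403 over WT (x axis), of genes by list, with exact 95% counting intervals; black genes are measured, grey genes are under 50 reads, open triangles have 0 WT reads and are set against the floor, and genes at or under 3 reads in both libraries are left out. Solid, dashed and dotted lines mark a ratio of 1, 2-fold either way and the median of all measured entries, and measured kinases, STATs and adaptors spread from -0.35 (Stat5a) to 1.46 (Tyk2) around the dotted one, while targets run from -0.44 (Vegfa) to 7.21.

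The order of levels among members was set per length, as RPM per kb of the windows listed for each gene, which span 400 to 800 bases. Whether reads outside these windows were counted is not stated. In MHC403 the order was Stat3 at 469, Il6st at 326, Sprr1a at 202, Socs3 at 105, Osmr at 98.3, Clcf1 at 29.1, Lifr at 21.3, Cntfr at 4.72 and Lif at 0.686 RPM per kb. In this order the intervals of Socs3 and Osmr overlapped, as did those of Clcf1 and Lifr. In WT the order was Il6st at 216, Stat3 at 186, Lifr at 32.6, Osmr at 19.6, Socs3 at 9.12, Clcf1 at 4.84, Cntfr at 2.48, Lif at 0.228 and Sprr1a at 0 RPM per kb. There the intervals of Il6st and Stat3 overlapped, as did those of each neighbouring pair from Socs3 down to Sprr1a. Sprr1a followed directly after Stat3 and Il6st in MHC403 and was last in WT. Per kb, Lifr stood below Clcf1 in MHC403 and above Osmr in WT. The place of Lifr below Clcf1 rests on window lengths of 800 bases for Lifr and 490 for Clcf1. In RPM Lifr was above Clcf1 in MHC403, at 17.0 against 14.3.

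The authors' deposited table gives each entry a start-site score, a whole number of unstated formula. Scores above 0 occur only where each library has 20 reads or more, and Osmr had 15, Stat3 4, Il6st 3, Socs3 0 and Lifr 0 in the authors' deposited table. Among the 10483 entries at that depth 34.7% had a score above 0 and 10.9% a score of at least 15. Osmr has 1 annotated start in the table. The other 4 members had under 20 reads in a library, so their score of 0 in the authors' deposited table carries no information.

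The scaling moved all members by the same amount, and the plot under 4 scalings shows which calls this touched. Stat3 passed 2-fold with library totals and with totals that leave out mitochondrial entries, and not with the 2 other scalings. Lifr passed 2-fold lower with median-of-ratios and TMM scaling. Sprr1a, Socs3, Clcf1 and Osmr were at least 2-fold higher in all 4.

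**Figure D5:**
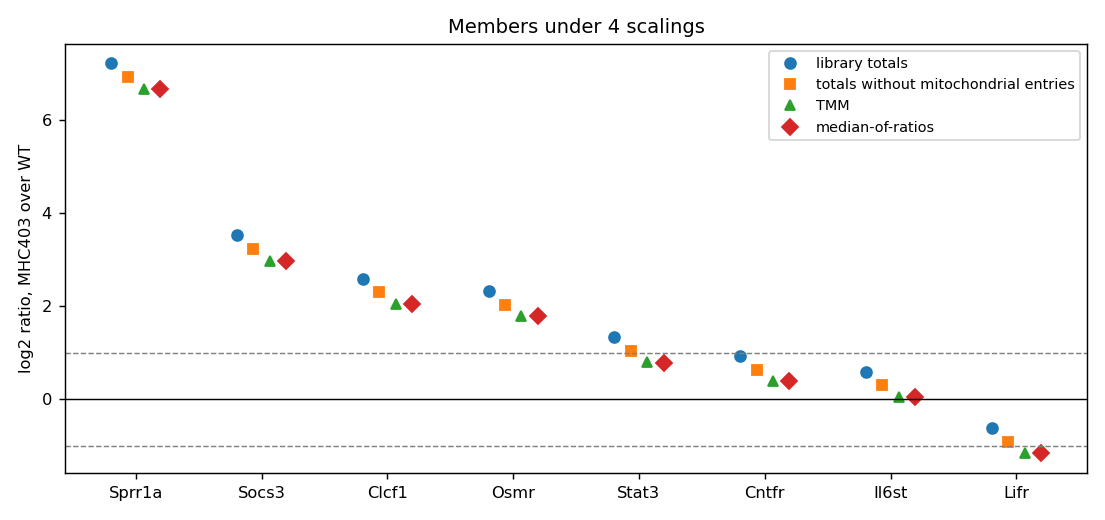
Log2 ratios, MHC403 over WT (y axis), of 8 members under 4 scalings, with dashed lines at 2-fold either way; Lif is left out for its 3 and 1 reads. The lowest values of Sprr1a, Socs3, Clcf1 and Osmr stay above 1, Stat3 crosses 1, and Lifr crosses -1.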

How the data were processed

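Heart RNA was prepared with Trizol, per the labels' protocols, and intact polyA RNA was size-selected and linearly amplified for 5′ sequencing. The submitters' processing notes name TopHat 1.0.14 and mm9. No source used here gives the counting program, its strand use or its handling of reads with several matches. Per the file headers, the authors deposited raw read counts per entry. The authors also deposited RPM, a fold (ratio) that is blank at few reads and coded 999 at 0 WT reads, a p-value whose test is not given and a start-site score. RPM were recomputed here from counts, and the deposited p-values were not used because each genotype has 1 library.

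Ratios of reads scaled to library totals were given exact 95% intervals conditional on the reads of a gene (scipy 1.17.1). For a library without reads, 3 counts were used as a floor, and no ratio was given where both libraries were at or under 3. Alternatives were median-of-ratios scaling, TMM scaling (edgeR 4.0.16), totals without 38 mitochondrial entries, minimums of 20, 200 and 1 read, and a floor of 1 count. A minimum of 50 on the mean of both libraries was added after the values were seen. The ratio and its interval were tested on simulated Poisson counts, the model that the interval assumes. That run checks the calculation only, and cannot show how well the interval suits amplified RNA of pooled animals. Named genes were the members, every ligand and receptor with a read, and up to 4 further genes per list by the bound of the interval nearer to 1. Further targets, Jak1, Jak2, Socs1, and single Sprr, keratinocyte and other marker genes were named after their values were seen. Members and gene lists were chosen with earlier results of these data known, and some genes of the lists are not reported here and enter no count or median of a list. Promoters come from RefSeq on GRCm38.p6, which matched 8 of 9 members by symbol, and were used for sequence only; no coordinates were converted from mm9. Words of 36 bases were counted in GENCODE M21 transcripts.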

Additional observations from a re-analysis of the deposited data

How the results depend on the processing

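With 1 pooled library per genotype, no result has an error between animals, and no library could be left out. No paired analysis was possible because each genotype has 1 library. The count of higher members was 4 or 5 under each alternative run. Counts of lists in this paragraph include the members. Median-of-ratios and TMM scaling each gave 1 lower member and 1 lower receptor (Lifr) in place of 0, 0 higher genes of the Janus kinase, STAT and adaptor list in place of 3, 2 higher inhibitors in place of 4 and 0 higher keratinocyte markers in place of 1. The median log2 ratio of the inhibitors was 0.24 with either. The Sprr1a ratio was 101.2 under TMM and 101.0 under median-of-ratios scaling, and 443 with a floor of 1 count. Totals without mitochondrial entries left 2 higher inhibitors. A minimum of 200 reads left no ligand measured. It left 1 of 2 measured receptors higher in place of 2 of 5. For the Janus kinase list this was 1 of 7 in place of 3 of 14. For inhibitors it was 2 of 3 in place of 4 of 10, and for targets 12 of 18 in place of 20 of 27. A minimum of 1 read gave 5 of 6 ligands, 7 of 14 inhibitors, 2 of 2 Sprr genes and 2 of 6 keratinocyte markers higher. A minimum on the mean of both libraries, added after the values were seen, left no ligand measured and 1 of 4 receptors higher. Shares of all entries at these minimums are not given, so these counts have no background. A minimum of 20 reads changed no count by more than 1.5 times, and no ratio past 2-fold changed sign under any alternative run. Several genes of the receptor, Janus kinase, inhibitor and target lists that were within 2-fold, Il11ra1 and Lrg1 among them, changed sign with median-of-ratios scaling. Low counts limit Lif, Cntfr, Il6 and Osm.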
